A study of Mus musculus with 3 samples.

Results

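The genes described here are the mouse cytochrome P450 2b enzymes Cyp2b9, Cyp2b10, Cyp2b13, Cyp2b19 and Cyp2b23, with their regulator Nr1i3 and their redox partner Por. Members were the probes whose deposited gene name equals 1 of these 7 symbols. They amount to 7 of 31870 genes and 8 of 39395 probes, since Nr1i3 has 2 probes and each other member 1. RNA of hepatocytes was hybridised to 3 single-colour arrays, 1 array per group, and the number of mice behind an array is not given in the labels. All mice were male wild-type C57BL/6 that entered the diet at 6 weeks of age, stayed on it for 16 weeks and were fasted overnight before their livers were digested with collagenase at 22 weeks. The HFD-anti-VLA-4 array held mice on a high-fat diet that received an antibody blocking VLA-4, an integrin of leukocytes. The HFD-IgG array held mice on the same diet that received control IgG. Both antibodies were injected into the peritoneum 2 times per week for 6 weeks, after 10 weeks on the diet. The SD array held mice on a standard diet, and no injection is listed for them. Between SD and either HFD array, diet and injection therefore cannot be told apart.

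Cyp2b enzymes sit in the membrane of the endoplasmic reticulum, where they oxidise drugs, steroids and fatty acids. Nr1i3 encodes CAR, the constitutive androstane receptor, which moves to the hepatocyte nucleus on exposure to phenobarbital, pairs with the retinoid X receptor and switches on Cyp2b10, its classical target gene. Cyp2b9 and Cyp2b13 are female-biased in the liver of adult mice, where the male pattern of growth hormone keeps them low in males. Cyp2b19 is known from skin keratinocytes. Por encodes cytochrome P450 reductase, which hands electrons from NADPH to every microsomal P450.

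The proximal promoters of the 3 Cyp2b genes that were measured are shown because Cyp2b9 and Cyp2b13 differed more between the HFD arrays and SD than Cyp2b10 did. Each window runs from 250 bases before to 50 bases after the RefSeq transcript start on build GRCm38.p6, plus strand, 5′ to 3′. Capitals mark AGGTCA, the core hexamer of nuclear receptor sites, and every CATAAAA or CATCAAAA, runs of TATA-like letters. The Cyp2b9 window is chr7:26173159-26173458, the Cyp2b13 window chr7:26061245-26061544 and the Cyp2b10 window chr7:25897408-25897707.
Cyp2b9: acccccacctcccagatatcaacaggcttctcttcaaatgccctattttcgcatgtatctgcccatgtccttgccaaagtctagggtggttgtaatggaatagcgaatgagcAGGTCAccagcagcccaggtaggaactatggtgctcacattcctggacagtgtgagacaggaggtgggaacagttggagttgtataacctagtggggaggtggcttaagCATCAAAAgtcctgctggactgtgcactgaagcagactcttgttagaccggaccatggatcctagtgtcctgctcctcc
Cyp2b13: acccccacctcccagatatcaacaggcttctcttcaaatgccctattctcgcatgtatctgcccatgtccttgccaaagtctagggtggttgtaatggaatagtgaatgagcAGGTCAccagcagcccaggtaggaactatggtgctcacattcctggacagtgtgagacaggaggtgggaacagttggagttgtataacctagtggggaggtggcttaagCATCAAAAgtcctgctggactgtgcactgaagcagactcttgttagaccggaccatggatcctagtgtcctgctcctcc
Cyp2b10: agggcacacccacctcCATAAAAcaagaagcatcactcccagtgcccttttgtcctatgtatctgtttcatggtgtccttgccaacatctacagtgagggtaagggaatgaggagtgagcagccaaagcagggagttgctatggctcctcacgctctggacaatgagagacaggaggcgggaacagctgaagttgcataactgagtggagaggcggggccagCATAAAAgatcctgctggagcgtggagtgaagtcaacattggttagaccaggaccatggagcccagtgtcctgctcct

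The Cyp2b9 and Cyp2b13 windows were identical at 298 of 300 positions (99.3%). The 2 substitutions were T48C and C104T, with the Cyp2b9 base first and positions counted from 1 at the 5′ end of the window. Cyp2b10 and Cyp2b9 shared 73.4% of aligned columns. Motifs were searched on both strands, and all matches in Cyp2b genes were on the strand of the gene. AGGTCA occurred 1 time in the Cyp2b9 and Cyp2b13 windows, starting at position 113, and also in those of Cyp2b19 and Cyp2b23. It was not in the windows of Cyp2b10, Nr1i3 and Por, and 16.3% of all 32851 RefSeq promoter windows held it. Cyp2b10 carried CATAAAA at positions 17 and 223 (4.19% of all windows hold it). Cyp2b19 and Cyp2b23, which were not above background on any array, also carried it, at positions 241 and 196. Cyp2b9 and Cyp2b13 carried CATCAAAA at position 222 instead (0.974% of all windows). The direct repeat AGGTCA, any 4 bases, AGGTCA was in none of the 7 windows and in 0.0152% of all. TTCNNNGAA, the core STAT motif, was in none of the 7 and in 8.3% of all. The phenobarbital enhancer of Cyp2b10 lies further upstream than these windows reach. All 5 Cyp2b genes lie on chromosome 7 and Cyp2b9 and Cyp2b13 are near-identical there, so their values are uncertain between copies. No 2 probes of different Cyp2b genes shared a run of more than 6 of their 60 bases, but how each probe matches the other transcripts was not analysed here.

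Probe letters are shown for Cyp2b9, which was well above background on all 3 arrays and far dimmer on SD, and for Nr1i3, whose 2 probes read neighbouring stretches of 1 transcript. The array's own annotation places the Cyp2b9 probe at chr7:26983484-26983543 on build mm9, and the Nr1i3 probes at chr1:173148765-173148824 and chr1:173147776-173147835, all on the plus strand. Their exon and UTR annotation was not used here.
Cyp2b9: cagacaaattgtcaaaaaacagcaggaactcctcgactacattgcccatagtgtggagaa
Nr1i3 probe 1: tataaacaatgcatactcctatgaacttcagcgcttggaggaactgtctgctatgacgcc
Nr1i3 probe 2: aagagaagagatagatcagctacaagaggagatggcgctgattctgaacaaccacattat

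Levels are given as the processed signal of a probe divided by its array's 75th percentile over all non-control spots, which was 513.7 on HFD-anti-VLA-4, 500.3 on HFD-IgG and 573.7 on SD. A level is not compared between genes, since probes differ in how well they bind. With 1 array per group no difference could be tested, and the error printed after ± is the scanner software's own error of the spot, which leaves out the spread between mice and between arrays. A difference is called when it reaches 2-fold. In place of a test, the standing among all genes compared is given for some members. A gene was compared when it was well above background, by the scanner software, on at least 1 array of the pair. Genes above background on 1 array only were left out when their level there did not exceed that set for the dim side. These were 99 genes for HFD-IgG over SD, 458 for HFD-anti-VLA-4 over HFD-IgG and 171 for HFD-anti-VLA-4 over SD. Cyp2b9, Cyp2b10, Nr1i3 and Por were well above background on all 3 arrays, Cyp2b13 on the HFD arrays only, and Cyp2b19 and Cyp2b23 on none.

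Hepatocyte identity was checked first. All 12 hepatocyte markers were well above background on every array, and their summed level was 4110 on HFD-anti-VLA-4, 4128 on HFD-IgG and 4351 on SD. Alb, which encodes albumin, was at 616.7, 762.4 and 747 in that order. On HFD-IgG over SD, 1 of the 12 hepatocyte markers was at least 2-fold lower (median log2 difference -0.12), where 2.42% of all genes were. With normexp background correction 5 of the 12 were (median -0.77), where 4.09% of all genes were. On HFD-anti-VLA-4 over SD their median was -0.19, or -0.59 with normexp. Markers of Kupffer, endothelial and stellate cells were higher on both HFD arrays. The 10 Kupffer cell markers on the array summed to 41.7 on HFD-anti-VLA-4, 58.0 on HFD-IgG and 9.15 on SD, with Clec4f at 5.01, 6.73 and 1.04. The 9 sinusoidal endothelial markers summed to 33.1, 54.3 and 14.8, with Stab2 at 4.95, 8.16 and 1.21. The 9 stellate cell markers summed to 9.32, 18.9 and 1.72, with Colec11 at 2.02, 3.85 and 0.255, and 7, 9 and 2 of them were well above background. The 6 cholangiocyte markers summed to 0.753, 0.951 and 0.506, the 6 leukocyte markers on the array to 5.87, 3.86 and 4.23, and the 7 keratinocyte markers to 1.19, 1.49 and 1.81. Their part in the results for Cyp2b genes was not tested. In bulk RNA a change in the number of cells of a type and in the RNA per cell cannot be told apart. The HFD-anti-VLA-4 array was on a slide of its own among these 3, and HFD-IgG and SD were on the same one, so slide and anti-VLA-4 antibody cannot be told apart.

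Cyp2b9 had a level of 2.54 ± 0.254 on HFD-anti-VLA-4, 1.33 ± 0.134 on HFD-IgG and 0.0935 ± 0.0125 on SD. The processed signals behind these were 1305, 667 and 53.6. The gene was thus dim in males on the standard diet and readily measured on both HFD arrays, highest with anti-VLA-4. Cyp2b13 had a level of 0.945 ± 0.0947 on HFD-anti-VLA-4, 0.723 ± 0.073 on HFD-IgG and 0.0328 ± 0.00903 on SD. On SD the signal was 18.8, not well above background and with a scanner error of 27.5%, so that level is only a nominal upper bound. Both female-biased enzymes therefore ran in the order HFD-anti-VLA-4, HFD-IgG, SD.

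Cyp2b10, the CAR target, was at 32.1 ± 3.21 on HFD-anti-VLA-4, 19.5 ± 1.95 on HFD-IgG and 5.31 ± 0.531 on SD. It ran in the same order as Cyp2b9 and Cyp2b13, with a bright signal on all 3 arrays. Nr1i3, the receptor, was at 19.2 ± 1.92 on HFD-anti-VLA-4, 10.8 ± 1.08 on HFD-IgG and 19.5 ± 1.95 on SD by its first probe. Its second probe read 6.53 ± 0.653, 4.65 ± 0.465 and 6.52 ± 0.652 in that order. Both probes had the HFD-IgG array lowest and the other arrays within their error of each other. Por, the reductase, was at 23.9 ± 2.39 on HFD-anti-VLA-4, 15.5 ± 1.55 on HFD-IgG and 38.4 ± 3.84 on SD, so that SD was highest and HFD-IgG lowest. The receptor and the reductase did not share the order of the enzymes.

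Cyp2b19, the keratinocyte enzyme, was at 0.0202, 0.0181 and 0.0194 and was not well above background on any array. Cyp2b23 was at 0.0142, 0.0387 and 0.0095 and was likewise below it on all 3. The scanner error of these spots was between 22.5% and 70.2% of the signal, and no fold is given for either gene. The keratinocyte marker Krt14 was at 0.0291 on HFD-anti-VLA-4, below background on HFD-IgG and at 0.0351 on SD.

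**Figure D1:**
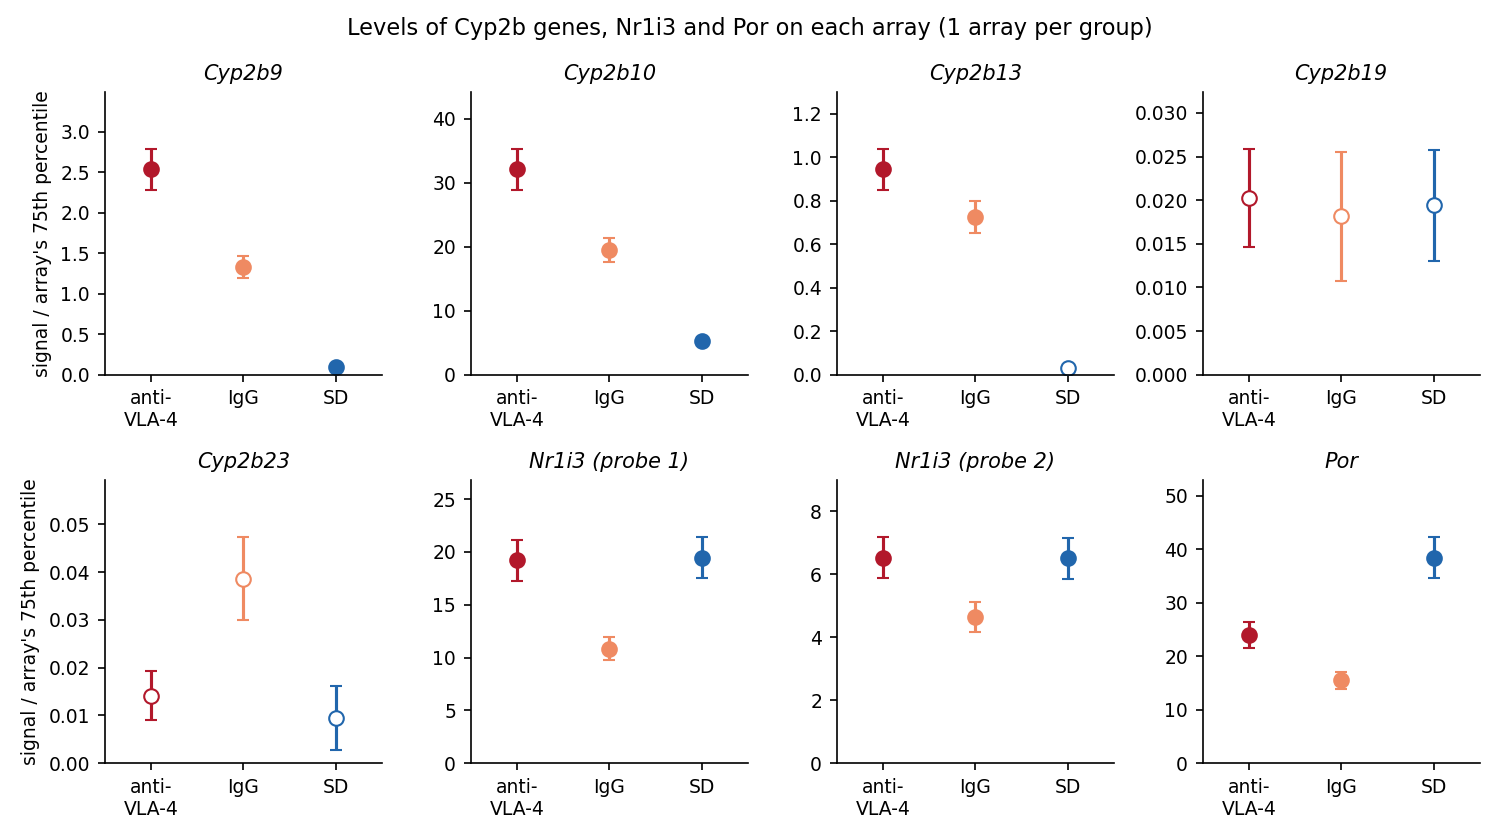
Level of each member probe on the 3 arrays as processed signal over the array's 75th percentile (linear axis from 0, 1 panel per probe), with 1 point per array and bars for the scanner error; open points are not well above background. Cyp2b9, Cyp2b13 and Cyp2b10 sit lowest on SD and highest on HFD-anti-VLA-4, and Nr1i3 and Por sit lowest on HFD-IgG.

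The high-fat diet with IgG was first set against the standard diet. The 3 measured Cyp2b enzymes were higher on HFD-IgG, and Nr1i3 and Por were lower. Cyp2b13 was nominally at least 22.0-fold higher on HFD-IgG (log2 difference 4.46, scanner error 0.42). This bound rests on the SD spot's own signal, which was not well above background, so the true fold can be smaller. Cyp2b9 was 14.3-fold higher (log2 difference 3.83, scanner error 0.24), and at least 217 of 21901 genes were higher still. Such counts are nominal minimum numbers, since they take genes with a lower bound at that bound. Cyp2b10 was 3.67-fold higher (log2 difference 1.88, scanner error 0.20), which at least 2271 genes exceeded. Among bright genes, those past the 75th percentile of at least 1 of the pair, 97.8% lay below Cyp2b10. Por was 2.48-fold lower (log2 difference -1.31, scanner error 0.20), and at least 273 genes lay below it. Nr1i3 was 1.79-fold lower by its first probe and 1.40-fold lower by its second (log2 differences -0.84 and -0.49), so it stayed under 2-fold.

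Of the 7 members, 3 were at least 2-fold higher on HFD-IgG than on SD, where 20.5% of the 21901 genes compared were, and 1 was at least 2-fold lower, where 2.42% were. The members' median log2 difference was 1.88 over the 5 measured, against 0.04 over all genes. The count of genes at least 2-fold higher depends on the scaling, since quantile scaling gave 11.7% higher and 13% lower. Among bright genes 4% were higher by 2-fold or more. Probes with more purines also read higher on HFD-IgG: the share at least 2-fold higher was 7.55% at 30 to 40% purines and 40.4% at 60 to 70%. The Cyp2b9 probe has 58.3% purines, Cyp2b13 40%, Cyp2b10 45% and Por 51.7%. The first Nr1i3 probe has 48.3% and the second 65%. Probes of 60 to 70% purines had a median log2 difference of 0.61 here. The smaller difference of the second Nr1i3 probe, -0.49, is given without centring for its purine content. After centring within bins of purine content, the log2 differences were 3.79 for Cyp2b9, 4.52 for Cyp2b13 and 1.94 for Cyp2b10. With normexp background correction they were 2.61 for Cyp2b9, 2.55 for Cyp2b13, 1.20 for Cyp2b10, -1.36 for Nr1i3 and -2.07 for Por, so Nr1i3 also passed 2-fold. Quantile scaling put Cyp2b13 at 3.96, so the size of its lower bound depends on the processing.

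The antibody comparison set HFD-anti-VLA-4 against HFD-IgG. All 5 measured members were higher with anti-VLA-4, and none reached 2-fold. Of 38 other Cyp2 genes measured, 34 were also higher there. Cyp2b9 was 1.91-fold higher (log2 difference 0.93), and at least 533 of 22129 genes were higher still. Nr1i3 was 1.77-fold higher by its first probe and 1.40-fold by its second. Cyp2b10 was 1.65-fold higher (0.72), Por 1.55-fold (0.63) and Cyp2b13 1.31-fold (0.39), with scanner errors close to 0.20 on the log2 scale. The differences of Cyp2b9, Cyp2b10, Por and the first Nr1i3 probe were thus about 3 to 5 scanner errors, that of the second Nr1i3 probe was 2.41 and that of Cyp2b13 under 2.

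At 2-fold, 0 of the 7 members were higher, where 1.94% of 22129 genes were, and 0 were lower, where 16.8% were. At 1.5-fold, 4 were higher (Cyp2b9, Cyp2b10, Nr1i3 and Por), where 7.26% of all genes were. The members' median log2 difference was 0.72, against -0.07 over all genes. Quantile scaling gave 11.1% of genes at least 2-fold higher and 9.33% lower. In the same comparison purine-rich probes ran the other way, with 40.6% of probes of 60 to 70% purines at least 2-fold lower. The median log2 difference of these probes, among which is the second Nr1i3 probe, was -0.58. The HFD-IgG array stands in both this comparison and its own comparison with SD, below in the former and on top in the latter. A value of that array thus moves both.

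Set against SD, the HFD-anti-VLA-4 array does not rest on HFD-IgG. Cyp2b13 was nominally at least 28.8-fold higher on HFD-anti-VLA-4 (log2 difference 4.85, scanner error 0.42), again a bound that rests on the dim SD spot. Cyp2b9 was 27.2-fold higher (log2 difference 4.76), and at least 3 of 20162 genes were higher still. Cyp2b10 was 6.05-fold higher (2.60), and at least 137 genes were higher still. Nr1i3 differed by -0.02 on the log2 scale by its first probe and 0.00 by its second, within the scanner error of 0.20. Por was 1.61-fold lower (-0.68), with at least 1427 genes below it. Of the 7 members 3 were at least 2-fold higher, where 8.05% of 20162 genes were, and 0 were lower, where 3.42% were. The median log2 difference over the 5 measured was 2.60, against 0.00 over all genes. With normexp the log2 differences were 3.36 for Cyp2b9, 2.69 for Cyp2b13, 2.04 for Cyp2b10, -0.45 for Nr1i3 and -1.28 for Por, which then passed 2-fold, and quantile scaling put Nr1i3 at 0.09 and Cyp2b13 at 4.36.

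**Figure D2:**
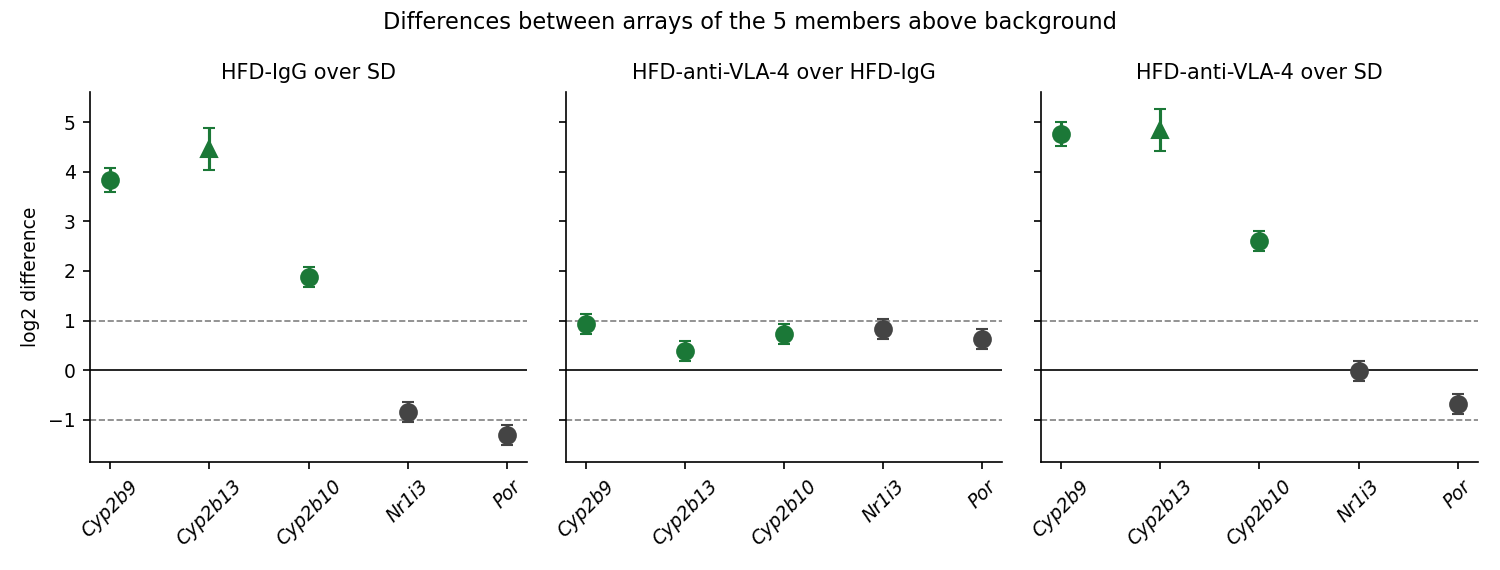
Log2 difference of each measured member by its brightest probe in the 3 comparisons, with bars for the scanner error, triangles for lower bounds and dashed lines at 2-fold. Cyp2b13 and Cyp2b9 lie furthest from 0 on both HFD arrays over SD, and no member reaches 2-fold for HFD-anti-VLA-4 over HFD-IgG.

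Partners and regulators of CAR were read next. Counts in the lists here and below stand beside the shares of all genes compared that reached 2-fold. These shares were 20.5% higher and 2.42% lower on HFD-IgG over SD. They were 1.94% and 16.8% on HFD-anti-VLA-4 over HFD-IgG, and 8.05% and 3.42% on HFD-anti-VLA-4 over SD. On HFD-IgG over SD, 0 of 19 were at least 2-fold higher and 2 were lower, with a median log2 difference of -0.25. With normexp 6 of 19 were lower (median -0.47). The 2 in the main setting were Egfr, the epidermal growth factor receptor, whose signalling holds CAR inactive (4.02 on HFD-IgG against 18.1 on SD, 4.49-fold lower), and Gadd45b, a CAR coactivator (2.23-fold lower). Nr1i2, which encodes the related receptor PXR, was 1.80-fold lower, Foxa2, a liver transcription factor, 1.79-fold lower and Rxra, the binding partner of CAR, 1.29-fold lower. On HFD-anti-VLA-4 over HFD-IgG, 0 of 19 reached 2-fold either way (median 0.06), and 1 was higher with normexp. Egfr was 1.91-fold higher there, Nr0b2, the corepressor SHP, 1.77-fold higher, Gadd45b 1.53-fold and Nr1i2 1.39-fold. On HFD-anti-VLA-4 over SD, Egfr alone of the 19 reached 2-fold (2.35-fold lower, median of the list -0.25).

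Known CAR targets other than the members were mixed. Of 30 measured on HFD-IgG over SD, 2 were higher by 2-fold or more and 5 lower, and 22 lay below 0 (median -0.51). That was 6.67% higher and 16.7% lower, against 20.5% and 2.42% of all genes. Of 39 other Cyp2 genes, some of them in this list, 29 lay below 0. With normexp 5 were higher and 13 lower of 29 (median -0.94). Cyp3a11, a drug-metabolising P450 shared with PXR, was at 55.0 on HFD-IgG against 249.5 on SD, 4.53-fold lower. Ces2a, a carboxylesterase, was 3.13-fold lower and Cyp1a2, a P450 that oxidises caffeine, 3.07-fold lower. Thrsp, a lipogenic gene, was 5.09-fold higher. On HFD-anti-VLA-4 over HFD-IgG, 4 of 29 were higher by 2-fold or more (1.94% of all genes) and 0 lower (16.8% of all genes, list median 0.24). These 4 were the P450 genes Cyp2c37 (2.35-fold), Cyp2c54 (2.18-fold), Cyp2c50 (2.09-fold) and Cyp2a4 (2.06-fold), which belong to families of near-identical copies and are uncertain between them. On HFD-anti-VLA-4 over SD, 1 of 30 was higher and 5 were lower (median 0.09), and with normexp 5 were higher and 5 lower of 29 (median -0.34). Thrsp was 6.65-fold higher there, Cyp3a11 4.63-fold lower, Akr1b7, an aldose reductase, 3.11-fold lower and Myc 2.30-fold lower. Akr1b7 was dim, at 0.0258 on HFD-anti-VLA-4, where the lowest level well above background was 0.0224.

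**Figure D3:**
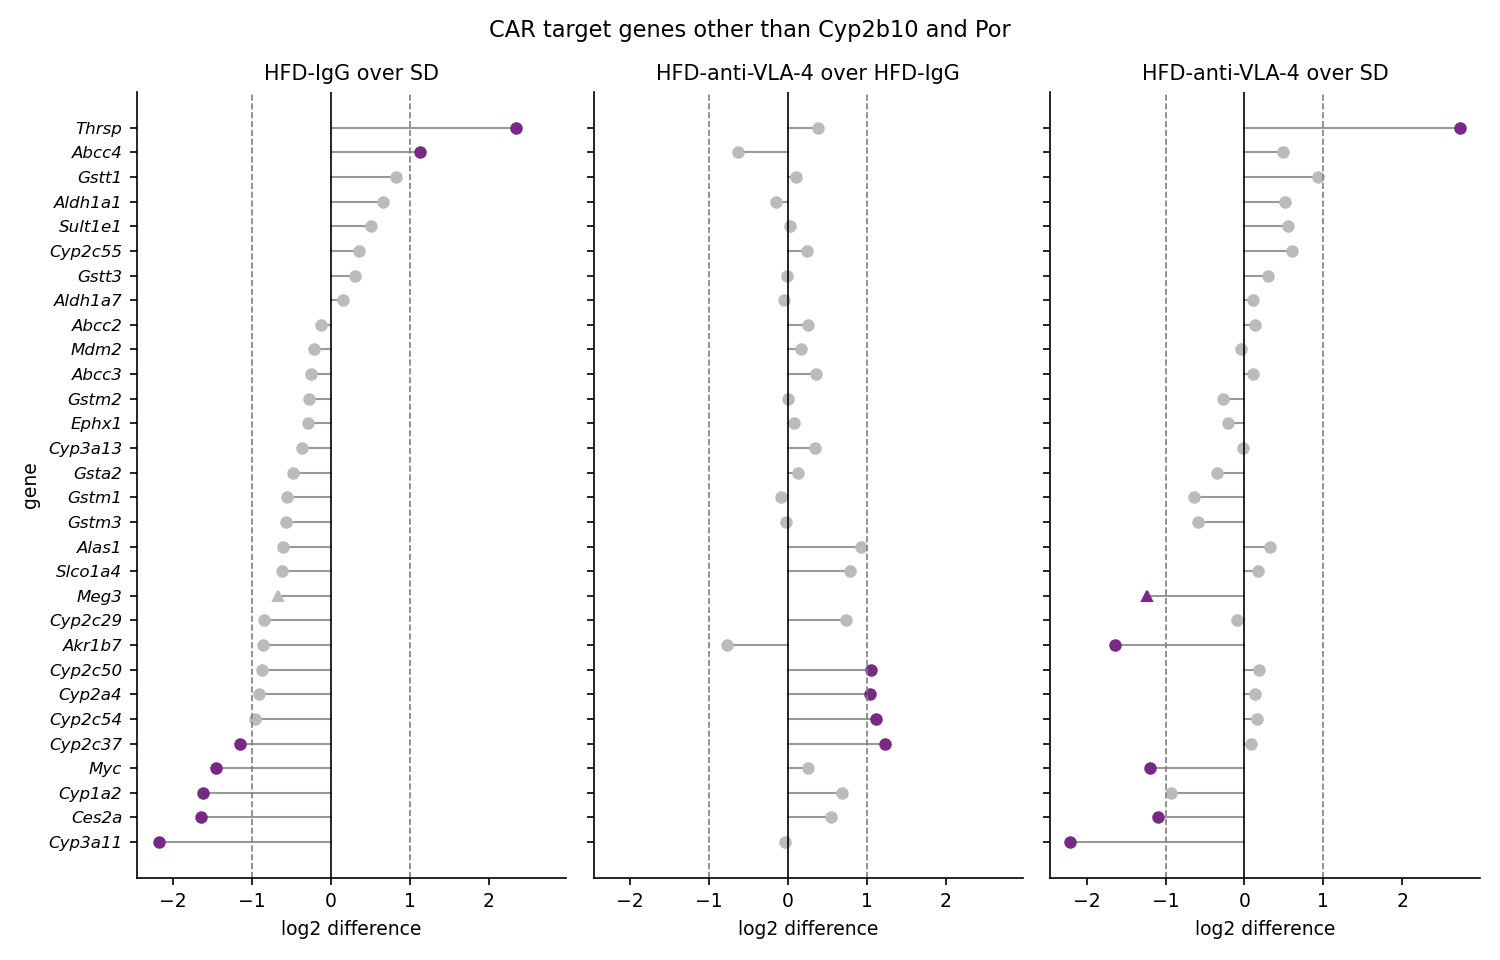
Log2 differences of the measured CAR target genes outside the members in the 3 comparisons, 1 row per gene, with dashed lines at 2-fold, dark points past them and triangles for lower bounds. On HFD-IgG over SD 22 of 30 lie below 0, and on HFD-anti-VLA-4 over HFD-IgG the 4 dark points are P450 genes above 0.

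Por has companions in electron transfer, and every P450 needs haem. Of 7 genes for electron transfer and haem breakdown, 1 was at least 2-fold higher on HFD-IgG over SD (median 0.03, or -0.55 with normexp). This was Hmox1, the inducible haem oxygenase, at 2.42 on HFD-IgG against 1.01 on SD (2.40-fold), a call that was lost with normexp, where 0 of 7 were higher. Cyb5r3, which reduces cytochrome b5, was 1.62-fold higher while Por was 2.48-fold lower. On HFD-anti-VLA-4 over HFD-IgG none of the 7 reached 2-fold (median 0.22), and Hmox1 was 1.33-fold higher. On HFD-anti-VLA-4 over SD, Hmox1 was 3.19-fold higher and the list's median was 0.25 (-0.16 with normexp). Of 8 genes of haem synthesis, none reached 2-fold in any of the 3 comparisons, with medians of -0.23 on HFD-IgG over SD, 0.11 on HFD-anti-VLA-4 over HFD-IgG and 0.01 on HFD-anti-VLA-4 over SD. With normexp 1 was lower in the first of these and 1 higher in the second, and the median of the third was -0.31. Alas1, its rate-limiting first enzyme in liver and a CAR target, was at 202 on HFD-anti-VLA-4, 106 on HFD-IgG and 161 on SD. It was thus lowest on HFD-IgG, as Por and Nr1i3 were, and 1.90-fold higher with anti-VLA-4 than with IgG.

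Other female-biased liver genes lay on both sides of 0. Of 13 measured on HFD-IgG over SD, 3 were higher by 2-fold or more and 3 lower (median 0.51). That was 23.1% each way, against 20.5% of all genes higher and 2.42% lower. Quantile scaling gave 1 higher and 3 lower of 11 (median -0.38), and normexp 5 higher and 4 lower. Abcd2, a peroxisomal transporter, was 3.95-fold higher. Cyp3a16, of a family of near-identical copies, was 5.50-fold lower and Cyp4a14, a fatty acid hydroxylase, 2.55-fold lower. Of 14 on HFD-anti-VLA-4 over HFD-IgG, 1 was higher and 2 were lower (median 0.11), against 1.94% and 16.8% of all genes. Quantile scaling gave 3 higher and 0 lower (median 0.40), cyclic loess 2 and 0, and normexp 1 and 0 of 13 (median -0.09), so neither the balance nor the sign is settled. Cyp2a4 was the higher one. Of 13 on HFD-anti-VLA-4 over SD, 3 were higher and 3 lower (median 0.10), and with normexp 6 and 2 (median -0.25). In the main setting 8.05% of all genes were higher there and 3.42% lower. Abcd2 was 5.16-fold higher, Prlr, the prolactin receptor, 3.13-fold higher, and Cyp3a16 was 5.36-fold lower.

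Among male-biased genes, several were lower on the HFD arrays than on SD. Of 19 on HFD-IgG over SD, 1 was at least 2-fold higher and 9 were lower (median -0.75), against 20.5% and 2.42% of all genes. With normexp 1 was higher and 12 were lower (median -1.25). Cyp4a12a, an arachidonic acid hydroxylase, was at 2.30 on HFD-IgG against 24.5 on SD (10.7-fold lower), and its near-identical neighbour Cyp4a12b was 10.9-fold lower. Slco1a1, an organic anion transporter, was 5.07-fold lower, and Bcl6, a repressor of female-biased genes, was 4.69-fold higher. On HFD-anti-VLA-4 over HFD-IgG, 2 of 19 were higher, Slco1a1 by 2.91-fold and Hsd3b5, a steroid-metabolising enzyme, by 2.78-fold, and 0 were lower (median 0.21). Of all genes 1.94% were higher there and 16.8% lower, and normexp put the list's median at 0.41. On HFD-anti-VLA-4 over SD, 1 was higher and 6 were lower (median -0.15), with Cyp4a12a 9.77-fold lower. Of all genes 8.05% were higher there and 3.42% lower. With normexp 1 of the list was higher and 9 were lower (median -0.66).

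The genes with the pattern most like each member's were found by the distance between log2 levels over the 3 arrays, each gene centred on its own mean, among 17034 genes well above background on all 3. Nearest to Cyp2b10 were 9130221J18Rik (distance 0.06), Slc10a2, an ileal bile acid transporter (0.16), and Lyz1, a lysozyme (0.16). For Cyp2b9 they were C730036E19Rik (0.41), Hamp2, a hepcidin (0.58), and Grin3b (0.76). Within a distance of 0.2 there were 0 genes for Cyp2b9, 9 for Cyp2b10, 51 for Por and 185 for Nr1i3. Nearest to Por was Slc22a5, a carnitine transporter, and among those of Nr1i3 was G6pc, the glucose phosphatase of gluconeogenesis. With 3 arrays such likeness is common and is given as a description.

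**Figure D4:**
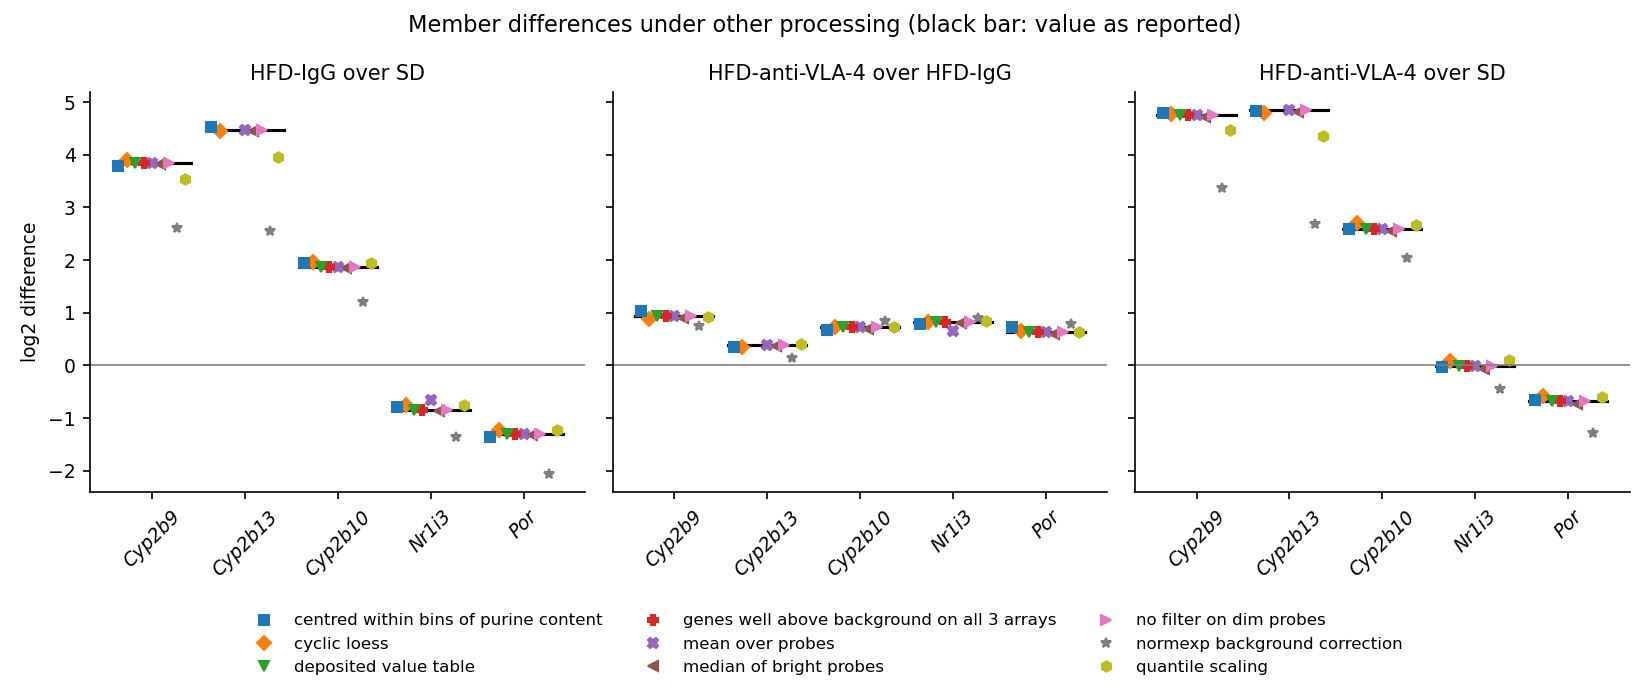
Log2 difference of the measured members in each comparison as reported (black bar) and under other processing (1 symbol per setting). Cyp2b9, Cyp2b13 and Cyp2b10 stay above 0 on both HFD arrays over SD under each setting, and Nr1i3 lies on either side of 0 on HFD-anti-VLA-4 over SD.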

How the data were processed

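RNA was read on 3 Agilent 1-colour arrays, 1 per group. The intensities used are the deposited processed signals of each spot, with background subtracted, per the file headers. The submitters' processing notes name Agilent Feature Extraction 11.0.1.1. Flags such as well above background are the scanner software's other values, per the file headers. The authors also deposited a table with a ratio of that signal to the array's 75th percentile for 23206 spots (largest relative deviation 2e-08, column medians 0.81, 0.80 and 0.79), and 5 member probes are in it.

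Each processed signal was divided by the 75th percentile of the 43020 non-control spots of its array and taken to log2. Spots flagged non-uniform or outlying were left out, spots of a probe averaged, and a gene took its brightest probe. The RefSeq table (GRCm38.p6) named 26055 of 39395 probes (66.1%) by accession, and the others kept the array's name, which can be old. Where 1 array of a pair was below background the fold is a nominal lower bound. The dim side was set to its own signal or, if higher, to the dimmest signal well above background on that array. That signal carries its own error, so the true fold can be smaller. With 1 array per group no test was made, and the number of arrays limits the precision. Between 10 spots of a probe, the median SD of log2 was between 0.481 and 0.56 for signals under 30 and between 0.0608 and 0.105 above 100.

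Named genes were all members, up to 4 genes of each list with the largest difference measured on both arrays, the 3 nearest patterns of 4 members, and 5 cell markers; the text gives part of them, and 1 gene is not reported here. Members and lists were chosen with earlier results of these data known. Alternatives were quantile scaling, cyclic loess, the median of bright probes, normexp with offset 50, other filters and thresholds, the mean over probes, centring by purine content and the deposited table. The steps were tested on simulated data. Python 3.11.15, numpy 2.4.6, pandas 2.3.3, matplotlib 3.10.9, biopython 1.88, R 4.3.3 and limma 3.58.1 were used.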

Additional observations from a re-analysis of the deposited data

How the results depend on the processing

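Over the alternatives, the log2 differences of HFD-IgG over SD ranged between 2.61 and 3.91 for Cyp2b9, 2.55 and 4.52 for Cyp2b13, 1.20 and 1.97 for Cyp2b10, -1.36 and -0.67 for Nr1i3, and -2.07 and -1.22 for Por. For HFD-anti-VLA-4 over HFD-IgG they ranged between 0.75 and 1.04 for Cyp2b9, 0.14 and 0.41 for Cyp2b13, 0.68 and 0.84 for Cyp2b10, 0.66 and 0.91 for Nr1i3, and 0.60 and 0.78 for Por. For HFD-anti-VLA-4 over SD they ranged between 3.36 and 4.80 for Cyp2b9, 2.69 and 4.85 for Cyp2b13, 2.04 and 2.70 for Cyp2b10, -1.28 and -0.58 for Por, and -0.45 and 0.09 for Nr1i3, whose direction was therefore not settled. On HFD-IgG over SD, normexp correction moved Cyp2b13 and Cyp2b9 more than the other measured members. Their SD signals were 18.8 and 53.6, beside a normexp offset of 50, and the cause was not tested. The median of all genes there was 0.58 with normexp (0.04 in the main setting), so relative to all genes their differences shrank further. The same median was 0.33 for HFD-anti-VLA-4 over SD and -0.18 for HFD-anti-VLA-4 over HFD-IgG. Normexp put 42% of genes at least 2-fold higher and 4.09% lower on HFD-IgG over SD, against 20.5% and 2.42% in the main setting, 0.323% and 0.712% on HFD-anti-VLA-4 over HFD-IgG, against 1.94% and 16.8%, and 31.1% and 2.15% on HFD-anti-VLA-4 over SD, against 8.05% and 3.42%. For HFD-anti-VLA-4 over HFD-IgG, the main count of 0 members at 2-fold became 1 with no filter on dim probes (Cyp2b23, lower, below background on both arrays), 4 at the 1.5-fold threshold by its construction, and 1 (Cyp2b9, 1.04) after centring within bins of purine content. Counts at 2-fold ranged between 3 and 5 for HFD-IgG over SD and 2 and 4 for HFD-anti-VLA-4 over SD. Quantile scaling gave 5.88% of genes higher and 4.38% lower for HFD-anti-VLA-4 over SD. Cyp2b13 had no value in the deposited table or when all 3 arrays had to be above background. No paired analysis was possible because each group has 1 array, and no replicate could be left out.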

Other observations

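Genes of growth hormone signalling and regulators of sex bias were also read. Of 21 on HFD-IgG over SD, 2 were higher by 2-fold or more and 5 lower (median 0.09), against 20.5% and 2.42% of all genes. In that comparison 11 lay above 0 and 10 below. Quantile scaling gave 1 higher and 7 lower of 20 (median -0.56), and normexp 4 and 4 (median -0.16). Cish, a growth hormone target that damps the pathway, was at 0.743 on HFD-anti-VLA-4, 0.234 on HFD-IgG and 1.78 on SD. Socs2, another such target, was at 0.116, 0.217 and 0.484 in that order. Onecut1, a liver transcription factor, was 2.71-fold lower on HFD-IgG than on SD and 3.32-fold lower on HFD-anti-VLA-4 than on SD. Socs3, an inhibitor of cytokine signalling, was 3.94-fold higher on HFD-anti-VLA-4 than on HFD-IgG.

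Of the other Cyp2 genes, 4 of 39 were higher by 2-fold or more and 4 lower on HFD-IgG over SD (median -0.38). That was 10.3% each way, against 20.5% of all genes higher and 2.42% lower. Normexp gave 8 higher and 18 lower of 38 (median -0.95), and quantile scaling 4 and 7. Cyp2c70, which makes the muricholic acids of mouse bile, was at 33.1 on HFD-anti-VLA-4, 22.6 on HFD-IgG and 6.94 on SD, the order of Cyp2b10. Cyp2a22 was 4.09-fold higher on HFD-IgG than on SD and 5.39-fold higher on HFD-anti-VLA-4 than on SD. Counting bounds, log2 differences in this list ran between -1.57 and 4.70 on HFD-IgG over SD. They ran between -4.89 and 1.30 on HFD-anti-VLA-4 over HFD-IgG. Cyp2d9, a male-biased steroid hydroxylase, was at 51.9, 34.6 and 103 in the order HFD-anti-VLA-4, HFD-IgG, SD. On HFD-anti-VLA-4 over HFD-IgG, 7 of 38 were higher and 2 lower (median 0.40), where 1.94% and 16.8% of all genes were. In that comparison 34 of the 38 lay above 0. On HFD-anti-VLA-4 over SD 2 of 37 were higher and 1 was lower (median 0.16), where 8.05% and 3.42% of all genes were. With normexp these last counts were 6 and 2 (median -0.32).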
